A study of Mus musculus with 3 samples.

Results

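The 10 genes described here encode the main proteins that store, take up, release, export and sense iron. They were taken by mouse symbol from a list of iron handling genes, out of 22698 Ensembl genes measured by RNA-seq in mouse melan-a cells, and all 10 were found in the files. The cells are immortalized melanocytes, the pigment-making cells of the skin, derived from Ink4a-ARF-/- mice on a C57BL/6J background. The 3 replicates, labelled 1, 3 and 4, share 1 condition. They were untreated and were grown in RPMI medium with 10% fetal bovine serum, 200 nM of the phorbol ester 12-O-tetradecanoylphorbol 13-acetate and 200 pM cholera toxin. The loss of Ink4a-ARF is carried by all replicates, and the line is a culture model without the keratinocytes that surround melanocytes in skin. The series calls the samples bioreplicates, and nothing else says how separate the cultures were, so every SD below measures the spread between these samples only. Levels are FPKM, fragments per kilobase of exon and per 1000000 counted, which the authors scaled between libraries. The list was selected on gene function with the FPKM level per replicate and the heavy to light ferritin ratio already known, and there is no other condition, so the levels and ratios are descriptions without a test.

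The files carry no counts. Low values of genes with 1 annotated transcript fell on whole reads at scaled library sizes of 53900000, 47000000 and 66200000 reads in replicates 1, 3 and 4. At these depths 3 reads on a gene of 1 kb came to 0.0557, 0.0638 and 0.0453 FPKM. All 10 genes lay far above such a level, and the largest counting error expected for any of them in any replicate was 5.72% of its value. That error covers counting only. The melanocyte markers *Tyr*, *Tyrp1*, *Dct*, *Pmel*, *Mlana*, *Sox10* and *Mitf* were at or above 1 FPKM in each replicate in 7 of 7 cases and summed to between 5711 and 6557 FPKM. Among 6 macrophage markers, which matter here because macrophages recycle iron, *Ptprc*, *Cd163* and *Itgam* were listed at 0 and the sum was 0.79 to 1.61 FPKM, nearly all from *Cd68*. The sum was 0.06 to 0.11 FPKM over 6 erythroid markers, 0.02 to 0.07 over 4 hepatocyte markers, 1.49 to 1.85 over 4 fibroblast markers, nearly all *Col1a1*, and 0.41 to 0.75 over 4 keratinocyte markers. In a bulk library, fewer cells that express a gene and less RNA per cell cannot be told apart.

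Cells hold spare iron inside ferritin, a hollow shell built from heavy and light chains. The heavy chain, encoded by *Fth1*, oxidizes ferrous iron, and the light chain, encoded by *Ftl1*, helps to lay down the mineral core. Iron arrives bound to transferrin (*Trf*), which is taken up by the transferrin receptor (*Tfrc*), crosses the endosomal membrane through the divalent metal transporter (*Slc11a2*) and leaves the cell through ferroportin (*Slc40a1*). Iron regulatory proteins, encoded by *Aco1* and *Ireb2*, bind a hairpin called the iron-responsive element when iron is scarce. Bound in the 5′ untranslated region, they block translation, and bound in the 3′ untranslated region of *Tfrc* they protect the message from decay. Melanocytes contain tyrosinase chemistry and melanin, which binds metal ions, so iron is of interest in this cell type.

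Because these hairpins are where the iron regulatory proteins bind the storage, export and uptake messages, they are shown first. A hairpin was sought in the spliced protein-coding transcripts of the mm9 annotation, on the sense strand, as an unpaired C, 5 paired bases, a loop of CAGTGN and the 5 pairing bases. GU pairs were allowed, and 5 further bases on each side were printed. In the lines that follow, read 5′ to 3′ on the RNA's strand, the capitals mark the unpaired C and the loop.

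Ftl1, 5′ untranslated region, chr7:52715150-52715176, minus strand: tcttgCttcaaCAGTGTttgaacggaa
Fth1, 5′ untranslated region, chr19:10057223-10057249, plus strand: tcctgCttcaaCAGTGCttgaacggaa
Slc40a1, 5′ untranslated region, chr1:45982311-45982337, minus strand: aacttCagctaCAGTGTtagctaagtt
Tfrc, 3′ untranslated region, chr16:32631306-32631332, plus strand: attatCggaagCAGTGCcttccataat
Tfrc, 3′ untranslated region, chr16:32631685-32631711, plus strand: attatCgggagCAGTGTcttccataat
Tfrc, 3′ untranslated region, chr16:32631750-32631776, plus strand: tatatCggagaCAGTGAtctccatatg
Tfrc, 3′ untranslated region, chr16:32631797-32631823, plus strand: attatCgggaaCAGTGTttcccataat
Slc11a2, 3′ untranslated region, chr15:100225585-100225611, minus strand: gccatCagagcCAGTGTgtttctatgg

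With all 5 stem pairs required, 4 of the 10 genes held 7 elements, all in untranslated regions. Elements before the coding sequence were found in *Ftl1*, *Fth1* and *Slc40a1*, the storage and export genes, and elements after it in *Tfrc*, the uptake gene. The 4 of *Tfrc* lay within 518 bases, each in 1 of its 3 protein-coding transcripts. Of the genes with an annotated 5′ untranslated region, 0.166% held such an element there, and 0.626% held one in the 3′ untranslated region. On the opposite strand, where the search serves as a background, 1.03% of genes matched anywhere. *Slc11a2* matched when 4 of 5 pairs were enough, in 2 of its 7 protein-coding transcripts, but at that setting 4.05% of genes matched in the 3′ untranslated region. The elements of *Ftl1* and *Fth1* were identical at 25 of 27 bases and differed by T3C and T17C, with positions counted from 1 at the 5′ end of the printed sequence and the *Ftl1* base given first. A match is a description of the sequence, and FPKM does not measure whether a protein was bound or the message translated.

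The ferritin messages were among the most abundant in these cells. Across replicates 1, 3 and 4, *Ftl1* was at 3549, 3851 and 2864 FPKM, a mean of 3421 ± 506 FPKM (SD, n = 3) and rank 6 of 22698 genes. *Fth1* was at 2772, 3183 and 2291 FPKM in the same order, a mean of 2749 ± 446 FPKM and rank 10. Both were highest in replicate 3 and lowest in replicate 4. Together they made up 1.67%, 1.78% and 1.44% of all FPKM in the 3 replicates. *Ftl1* (ENSMUSG00000050708) lies on chromosome 7 of mm9 from 52713314 to 52715254 on the minus strand, and *Fth1* (ENSMUSG00000024661) on chromosome 19 from 10057193 to 10059582 on the plus strand.

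**Figure D1:**
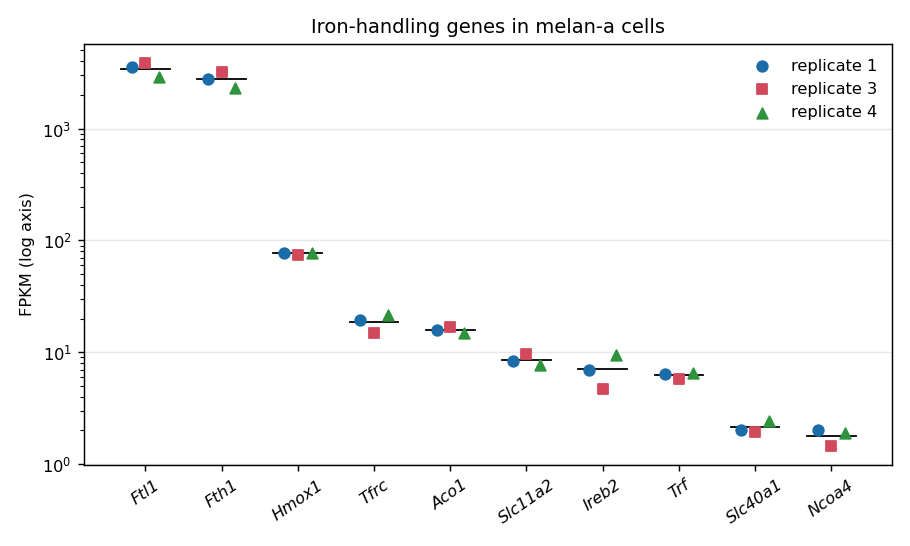
FPKM of the 10 iron handling genes on a log axis, with 1 point for each replicate and a line at the mean of the 3. *Ftl1* and *Fth1* lie at 2291 FPKM or more in every replicate, *Hmox1* between 74.6 and 77.8, and the other 7 genes below 22.

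The heavy to light ratio, *Fth1* over *Ftl1* within a library, was 0.781, 0.827 and 0.800 in replicates 1, 3 and 4, a mean of 0.803 ± 0.023 (SD, n = 3). In deposited FPKM the light chain message was therefore the higher one in 3 of 3 replicates. As deposited, the ratio varied by 2.84% while each gene varied by 14.8% and 16.2%, and the ranges of the 2 genes overlapped between libraries. With the GC centring described below, the ratio varied by 7.71%. The ratio stayed below 1 under every alternative tried, but its size changed. The alternatives of length and windows took the deposited values to be divided by the joined exons. They could therefore only lower the ratio. The opposite case, values divided by a shorter length for *Ftl1*, was not tried, so the side of 1 is not settled by them. The joined exons of *Ftl1* measure 1340 bases over 5 transcripts, against 968 for its longest protein-coding transcript, and those of *Fth1* 866 bases in a single transcript. Which length the authors used is not given in the sources used here. With the longest protein-coding transcript in place of the joined exons the ratio was 0.580, and as reads per gene, without division by length, 0.519.

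Copies elsewhere in the genome also bear on the ferritin levels. Windows of 50 bases were cut from the longest protein-coding transcript of each gene and looked up in the mm9 genome outside the gene. For *Ftl1*, 74.9% of the windows had an exact copy, in 12 places of which 7 were at least 300 bases long. For *Fth1* the share was 8.69%, in 2 places. Windows of 90 bases gave 63.5% and 2.32%. How reads with several equal matches were treated is not given in the sources used here. If the length were that of the longest protein-coding transcript and only its windows found nowhere else had produced counted reads, the ratio would be 0.160. This setting joins 2 changes, of which the length alone gave 0.580, and was chosen after seeing the data.

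A copy of *Ftl1* has a level of its own in the files. *Gm10116*, named after its values were seen, is a protein-coding model on chromosome 13 of mm9 from 74543844 to 74544765 on the plus strand. It was listed at 438, 513 and 369 FPKM in replicates 1, 3 and 4, rank 90 of 22698. That came to 12.3%, 13.3% and 12.9% of *Ftl1*, a nearly fixed share (mean 12.9 ± 0.5%, SD, n = 3). All of its 50-base windows occurred elsewhere in the genome, and 95.9% of its 90-base windows did. It also holds the hairpin of *Ftl1*, identical at 27 of 27 bases. No 50-base window was therefore particular to this model, whereas the windows of *Ftl1* outside the 74.9% were its own, and the levels of both are uncertain. With counting limited to 50-base windows found nowhere else, *Gm10116* would have no reads, whereas 4.08% of its 90-base windows were found nowhere else. Which reads gave *Gm10116* its level was not tested. With *Gm10116* added to *Ftl1*, light exceeded heavy 1.41 ± 0.03 times (n = 3), against 1.247 ± 0.035 times without it.

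**Figure D2:**
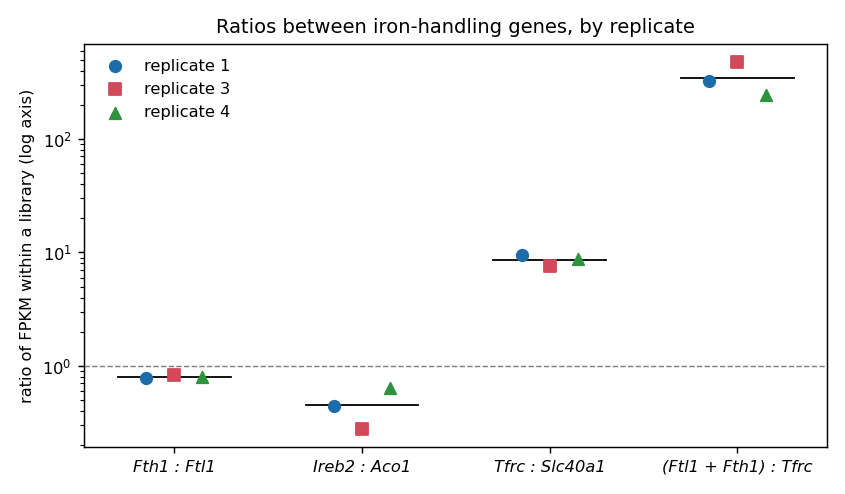
Ratios of FPKM taken within each library, on a log axis, with 1 point for each replicate and a line at the mean; the dashed line marks equal levels. *Fth1* to *Ftl1* stays between 0.781 and 0.827, whereas *Ireb2* to *Aco1* spreads from 0.28 to 0.634 and both ferritins to *Tfrc* from 242 to 473.

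*Ncoa4*, the receptor that brings ferritin to autophagosomes so that its iron can be released, was the lowest of the 10 genes. It was at 2, 1.46 and 1.9 FPKM in replicates 1, 3 and 4, a mean of 1.79 ± 0.29 FPKM (SD, n = 3) and rank 9516. These values correspond to an estimated 480, 305 and 560 reads, so counting error was small beside the difference from the ferritins. *Ncoa4* (ENSMUSG00000056234) lies on chromosome 14 of mm9 from 32973051 to 32993041 on the plus strand. This level is not a firm measure of the message, since 78.8% of the 50-base windows of its longest protein-coding transcript, and 94.5% of those in its coding sequence, had an exact copy in 1 other place. That place, on chromosome 12 from 120499406 to 120502748, is annotated as the pseudogene *Gm6768*, for which the files list no value. With windows of 90 bases the shares were 76.6% and 89.9%. The part of the copy in the low level of *Ncoa4* was not tested.

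**Figure D3:**
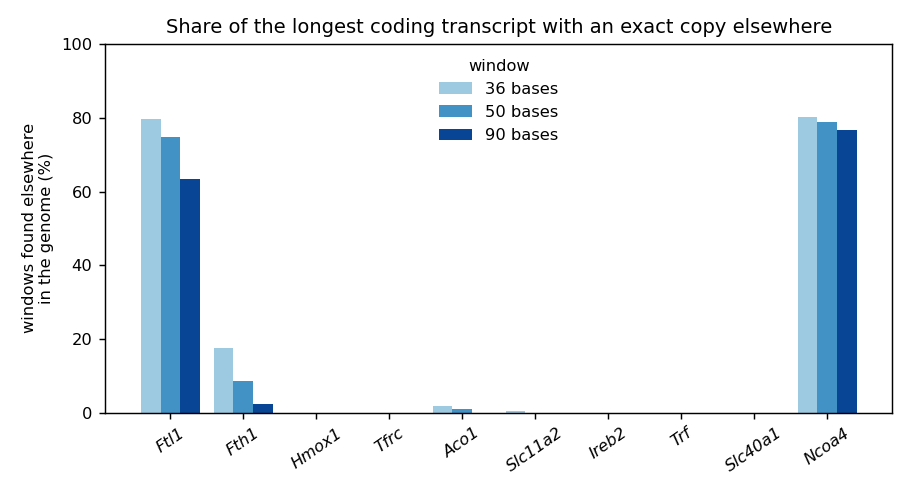
Percent of all windows of the longest protein-coding transcript that have an exact copy elsewhere in the mm9 genome, for windows of 36, 50 and 90 bases, genes in order of level. *Ftl1* at 63.5% to 79.7% and *Ncoa4* at 76.6% to 80.2% stand apart from *Fth1* at 2.32% to 17.5% and from the other 7 genes, at or below 1.97%.

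Of the 3 uptake genes among the 10, *Tfrc* was the highest. It was at 19.4, 14.9 and 21.3 FPKM in replicates 1, 3 and 4, a mean of 18.5 ± 3.3 FPKM (SD, n = 3), rank 3464. As deposited, *Tfrc* was lowest in replicate 3, where the ferritins were highest. Its coefficient of variation, 17.9%, was the second largest of the 10. The summed ferritin messages exceeded it 326 times in replicate 1, 473 times in replicate 3 and 242 times in replicate 4. As reads per gene, without division by length, the mean ratio was 63.3 in place of 347. After the GC centring described below, the ratios were 328, 345 and 330 in the same order. The log2 ratio of replicate 3 to replicate 4 for *Tfrc* was then 0.12. *Slc11a2*, which moves ferrous iron out of the endosome, was at 8.27, 9.55 and 7.74 FPKM, a mean of 8.52 ± 0.93 FPKM. *Tfrc* (ENSMUSG00000022797) lies on chromosome 16 of mm9 from 32609006 to 32632880 on the plus strand, and *Slc11a2* (ENSMUSG00000023030) on chromosome 15 from 100218329 to 100255503 on the minus strand. The level of *Slc11a2*, rank 5850, sums 9 annotated transcripts, with and without the 3′ element.

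*Trf*, the iron carrier of plasma that the liver secretes, was also detected, at 6.42, 5.79 and 6.53 FPKM in replicates 1, 3 and 4. Its mean was 6.25 ± 0.4 FPKM (SD, n = 3). Hepatocyte markers were near 0 in these libraries, as given above. The annotation holds 2 models of this name on the minus strand of chromosome 9. The measured one (ENSMUSG00000032554) runs from 103106331 to 103132774 of mm9 and ranked 6800. The second (ENSMUSG00000090639), from 103092538 to 103132637, was listed at 0 in all 3 replicates, and 63.7% of the exon bases of the first lay within exons of another listed model on the same strand. How reads in shared exons were assigned was not tested, so the level of *Trf* is uncertain.

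*Slc40a1*, the only known iron exporter of mammalian cells, was at 2.03, 1.94 and 2.44 FPKM in replicates 1, 3 and 4, a mean of 2.14 ± 0.27 FPKM (SD, n = 3) and rank 9225. It was highest in replicate 4, and the values correspond to an estimated 370, 308 and 546 reads. *Slc40a1* (ENSMUSG00000025993) lies on chromosome 1 of mm9 from 45964915 to 45982439 on the minus strand, and none of its windows had a copy elsewhere. The uptake receptor exceeded the exporter in 3 of 3 replicates, with *Tfrc* to *Slc40a1* ratios of 9.55, 7.66 and 8.74 and a mean of 8.65 ± 0.95. As reads per gene the ratio was 15.8, because the joined exons of *Tfrc* measure 6185 bases and those of *Slc40a1* 3380.

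The sensors were expressed at intermediate levels. *Aco1*, whose product is cytosolic aconitase when it holds an iron-sulphur cluster and binds the hairpins when it does not, was at 15.8, 16.9 and 14.8 FPKM in replicates 1, 3 and 4, a mean of 15.8 ± 1.1 FPKM (SD, n = 3). *Ireb2*, whose product is destroyed when iron is plentiful, was at 6.94, 4.73 and 9.36 FPKM, a mean of 7.01 ± 2.32 FPKM. Replicate 4 was 1.98 times replicate 3, which made it the most variable of the 10 genes, with a coefficient of variation of 33%. *Aco1* (ENSMUSG00000028405, rank 3927) lies on chromosome 4 of mm9 from 40090114 to 40146042, and *Ireb2* (ENSMUSG00000032293, rank 6455) on chromosome 9 from 54711562 to 54760341, both on the plus strand. The *Ireb2* to *Aco1* ratio was below 1 in 3 of 3 replicates, at 0.439, 0.28 and 0.634, with a mean of 0.451 ± 0.177.

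*Hmox1*, the inducible heme oxygenase that frees iron from heme, was the third highest of the 10 and had the smallest spread in deposited FPKM. It was at 77.8, 74.6 and 77.8 FPKM in replicates 1, 3 and 4, a mean of 76.7 ± 1.8 FPKM (SD, n = 3), rank 836, with a coefficient of variation of 2.39% as deposited. Relative to genes of like GC content it was not the steadiest, with a log2 ratio of replicate 3 to replicate 4 of -0.25, further from 0 than those of *Ncoa4* (-0.03), *Slc40a1* (0.05), *Ftl1* (0.08), *Aco1* (0.11) and *Tfrc* (0.12). *Hmox1* (ENSMUSG00000005413) lies on chromosome 8 of mm9 from 77617490 to 77624495 on the plus strand. Its message was at 4.02, 5.02 and 3.65 times the level of *Tfrc* in the 3 libraries.

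In descending order of mean FPKM the genes were *Ftl1*, *Fth1*, *Hmox1*, *Tfrc*, *Aco1*, *Slc11a2*, *Ireb2*, *Trf*, *Slc40a1* and *Ncoa4*. The ranges of 4 neighbouring pairs did not overlap, namely *Fth1* and *Hmox1*, *Hmox1* and *Tfrc*, *Aco1* and *Slc11a2*, and *Trf* and *Slc40a1*. The largest step was from *Fth1* to *Hmox1*, 35.9 ± 6.6 times (SD, n = 3). The other 5 neighbouring pairs overlapped. Of these, *Ftl1* over *Fth1* kept its order within each of the 3 libraries. *Slc40a1* was also above *Ncoa4* in each, but in replicate 1 the ratio was only 1.015. That ratio rests on an estimated 370 and 480 reads, so the order in replicate 1 is not settled. *Tfrc* over *Aco1*, *Slc11a2* over *Ireb2* and *Ireb2* over *Trf* held in 2 of 3. All 10 genes were at or above 1 FPKM in each replicate, as were 44.1% of the 22698 genes of the files. Their median level was 12.2 FPKM, against 11.2 FPKM for the 10011 genes that passed this threshold. The ferritins and *Hmox1* ranked far above that median, while *Slc40a1* and *Ncoa4* ranked near the bottom of the genes that passed.

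The genes closest to the ferritins over the 3 replicates were sought by the root mean square difference of log2(FPKM + 1). For *Fth1* they were *Lgals1*, a galectin, at 0.03, *Sparc*, a secreted matrix protein, at 0.25 and *Eef1a1*, a translation elongation factor, at 0.26. For *Ftl1* they were *Sparc* at 0.26, the mitochondrially encoded *mt-Nd5* at 0.31 and *Lgals1* at 0.31. The measure rests on 3 libraries of 1 condition and reflects mainly the level.

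The replicates differed in a way that followed GC content. Between replicates 3 and 4, most but not all of the 10 genes moved in the direction of genes of like GC content, though by differing amounts. Replicate 3 was highest for *Ftl1*, *Fth1*, *Slc11a2* and *Aco1*, whose joined exons had a GC content of 50.8% to 56.5%. Replicate 4 was highest for *Tfrc*, *Trf*, *Slc40a1* and *Ireb2*, at 39.1% to 51.4%, and replicate 1 for *Hmox1* and *Ncoa4*, at 52.7% and 44.6%. Between replicates 3 and 4, 1 of the 10 genes, *Ireb2*, was apart by at least 1.5-fold, against 18.6% of 10007 genes at or above 1 FPKM in each replicate that have a position in the annotation. With a smaller difference of 0.32 on the log2 scale, 6 of 10 members and 48% of these genes were apart. At 1.5-fold no member was apart between replicates 1 and 3 or between replicates 1 and 4, where 2.18% and 3.54% of genes were. For *Ireb2* the log2 ratio of replicate 3 to replicate 4 was -0.98, where genes of like GC content had a median of -0.65. For *Tfrc* it was -0.52 against a median of -0.64, and for *Ftl1* it was 0.43 against 0.34. *Fth1*, at 0.47 against 0.18, and *Slc11a2*, at 0.30 against 0.06, stood further above genes of their GC content. *Trf*, at -0.17 against 0.10, and *Hmox1*, at -0.06 against 0.19, lay on the other side of 0 from genes of like GC content.

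**Figure D4:**
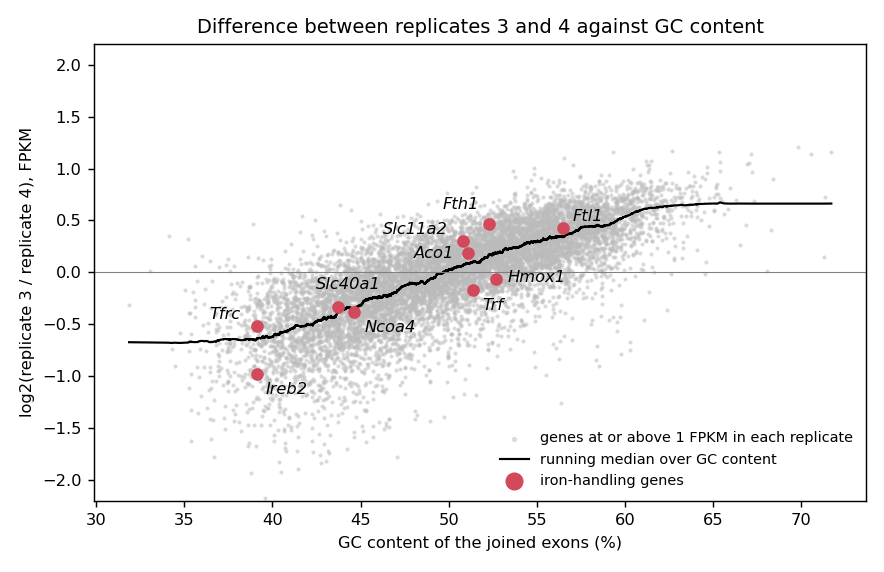
Log2 ratio of FPKM in replicate 3 over replicate 4 against the GC content of the joined exons in percent. Grey points are the 10007 genes at or above 1 FPKM in each replicate (3 lie outside the axis), the line is their running median and red points are the 10 iron handling genes, from *Ireb2* at -0.98 to *Fth1* at 0.47.

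When each replicate was centred on genes of like GC content, no member was apart by 1.5-fold between replicates 3 and 4, against 5.5% of the 10007 genes. The ratio of both ferritins to *Tfrc* then narrowed from 326, 473 and 242 to 328, 345 and 330 in replicates 1, 3 and 4. Its coefficient of variation went from 33.8% to 2.78%. The *Ireb2* to *Aco1* ratio narrowed to 0.432, 0.363 and 0.496. The *Fth1* to *Ftl1* ratio instead spread, to 0.785, 0.872 and 0.752, with the mean still at 0.803. For this ratio the coefficient of variation rose from 2.84% to 7.71%. Which step of sample or library preparation differed between the replicates was not tested.

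Beyond the 10, 70 further genes of iron and heme handling were read from the files, and 49 of them were at or above 1 FPKM in each replicate, a threshold that 44.1% of all genes in the files passed. Among 13 genes of uptake and reduction, 5 passed. The highest was *Snx3*, a sorting nexin that recycles the transferrin receptor, at 180, 189 and 168 FPKM in replicates 1, 3 and 4. *Slc39a14*, a metal importer of the ZIP family, had a mean of 29.1 ± 3.6 FPKM (SD, n = 3), above *Tfrc*, and *Steap3*, the endosomal ferrireductase, 11.3 ± 2.5 FPKM. The 7 genes below 1 FPKM in all 3 replicates were *Tfr2*, *Scara5*, *Lcn2* and *Cybrd1*, with means of 0.023 to 0.42 FPKM, and *Steap4*, *Slc39a8* and *Cd163*, listed at 0. Of the 2 transferrin receptor genes, *Tfrc* therefore supplied nearly all of the message.

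Of 13 genes of export and of its hormonal control 4 passed, where 44.1% of all genes did. *Slc48a1*, which carries heme out of endosomes and lysosomes, was the highest at 272, 303 and 213 FPKM in replicates 1, 3 and 4, a mean of 263 ± 46 FPKM (SD, n = 3) and rank 183. *Hfe*, a partner of the transferrin receptor, had a mean of 8.4 ± 0.5 FPKM. *Cp*, a ferroxidase that works with ferroportin, had 3.2 ± 1.1 FPKM, and *Flvcr1*, a heme exporter, 2.49 ± 0.27 FPKM. Below 1 FPKM in all replicates were *Heph*, *Tmprss6*, *Bmp6*, *Flvcr2* and *Abcg2*, with means of 0.0033 to 0.687 FPKM. *Hephl1*, *Hamp*, *Hamp2* and *Hfe2* were listed at 0. *Hamp* encodes hepcidin, the hormone that removes ferroportin from the membrane.

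Iron chaperones were high. *Pcbp1* and *Pcbp2*, which deliver iron to ferritin, had means of 126 ± 30 and 123 ± 15.4 FPKM (SD, n = 3), and their relative *Pcbp4* had 178, 210 and 138 FPKM in replicates 1, 3 and 4. *Pcbp3* was below 1 FPKM throughout, and the other ferritin genes *Ftmt*, the mitochondrial form, and *Fthl17* were listed at 0. All 7 genes of sensing and transcription passed, where 44.1% of all genes did. The 7 were led by *Nfe2l2*, the transcription factor that drives *Hmox1* and ferritin genes under oxidative stress, at 119, 91.1 and 142 FPKM. *Bach1*, the heme-sensitive repressor of *Hmox1*, had a mean of 3.2 ± 0.46 FPKM, and *Fbxl5*, the iron-sensing factor that targets iron regulatory protein 2 for degradation, 4.4 ± 0.88 FPKM.

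All 16 genes of mitochondrial iron and iron-sulphur clusters passed, where 44.1% of all genes did. The 16 ran from *Fdx1* at 1.41 FPKM to *Glrx5*, a glutaredoxin of cluster assembly, at 39 ± 5.4 FPKM (SD, n = 3). *Slc25a37*, the mitochondrial iron importer, was uneven, with 15.2, 13.9 and 27.5 FPKM in replicates 1, 3 and 4. Of 12 genes of heme synthesis and breakdown 11 passed, beside the same 44.1% of all genes. *Fech*, which inserts iron into heme, was the highest at 43.2, 43.9 and 41.3 FPKM. *Alas1*, the general first enzyme of heme synthesis, had a mean of 13.4 ± 1.1 FPKM, whereas the erythroid enzyme *Alas2* was listed at 0. The constitutive heme oxygenase *Hmox2*, at 24 ± 1.1 FPKM, was lower than *Hmox1* in 3 of 3 replicates.

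**Figure D5:**
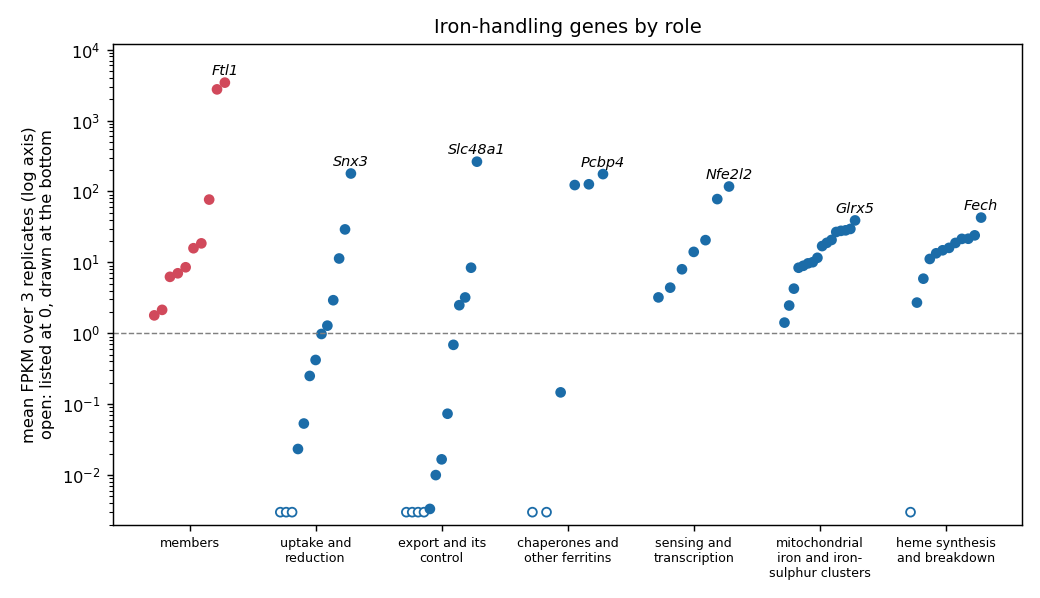
Mean FPKM over the 3 replicates, on a log axis, of the 10 members (red) and of the other iron handling genes in 6 groups by role (blue); open circles at the bottom are genes listed at 0, the dashed line is 1 FPKM and the highest gene of each group is named. The ferritins lie above every other gene, and the next highest is *Slc48a1* at 263 FPKM.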

How the data were processed

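RNA-seq libraries of 3 melan-a replicates were made with a stranded mRNA kit. According to the methods and the submitters' processing notes, the authors trimmed the 10 5′-most bases, aligned reads to mm9 with STAR 2.3.0e, removed rRNA reads and counted with HTSeq 0.5.3p3 on Ensembl release 67. The deposited values are FPKM per gene, which the authors scaled by trimmed means of M values (TMM) and gave to 2 decimals. The gene length behind them and the treatment of reads with several matches are not given in the sources used here.

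The 10 genes and the lists were chosen with earlier results of these data known. Genes named were all members, the highest of each group by role, each gene below 1 FPKM in all replicates and the 3 genes closest to each ferritin. In the counts 1 further gene is included that is not reported here. Other pathway genes given with values were chosen after their values were seen. Positions, exon lengths and GC content were read from Ensembl release 65 on mm9, where 22324 of 22698 genes were found. Symbols *Tfr2*, *Flvcr1* and *Flvcr2* were matched through RefSeq synonyms, and *Ftl2* has no value in the files. GC centring subtracted the median log2 deviation of the 401 genes nearest in GC content. Searches for depth and hairpins were tested on simulated data. Alternatives were the median, each replicate left out, pseudocounts, rescaling, other thresholds, lengths and windows. Python 3.11.15, numpy 2.4.6, pandas 2.3.3, scipy 1.17.1, pysam 0.24.0 and matplotlib 3.10.9 were used.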

Additional observations from a re-analysis of the deposited data

How the results depend on the processing

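The *Fth1* to *Ftl1* ratio of 0.803 stayed within the SD between replicates with the median, with log2 means, after GC centring and with each replicate left out (0.791 to 0.813). With 3 replicates, the median and the means with 1 left out must lie within the SD, so those settings could not move. The ratio moved to 0.519 as reads per gene and to 0.580 with the longest protein-coding transcript. With that length and only windows found nowhere else it moved to 0.160, a setting chosen after seeing the data. The moves come from the lengths and windows themselves. They take the deposited values to be divided by the joined exons, which is not known, and could only lower the ratio. The number of members apart by 1.5-fold between replicates 3 and 4, which was 1, became 0 after GC centring, 6 when a log2 difference of 0.32 was enough, and 0 between replicates 1 and 3 and between replicates 1 and 4. The counts of genes at or above 1 FPKM, 10 members and 49 others, stayed within 1.5 times under 9 alternatives each, down to 7 and 38 at 5 FPKM. Only the threshold of 5 FPKM could lower either count, so the other alternatives could not show a loss. The share of all genes at 5 FPKM was not counted, so these lower counts have no background beside them. Of 80 alternative values for the level of single members, 60 stayed within the SD, and the 20 that moved were all rescaled to a sum of 1000000, which changes the unit. Among the 60, the medians and the values with a replicate left out had to stay within the SD. As reads per gene, *Tfrc* to *Slc40a1* moved to 15.8 and ferritins to *Tfrc* to 63.3. No paired analysis was possible because there is 1 group. Depth limits only genes listed at 0 or near 3 reads, and shared sequence limits *Ftl1*, *Gm10116* and *Ncoa4* more than depth does.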

Other observations

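Hairpins of the same form were also sought in genes of iron and heme handling outside the 10. With all 5 pairs required, a match lay in the 5′ untranslated region of *Alas2*, on chromosome X of mm9 from 146982002 to 146982028, which was listed at 0 in all 3 replicates. *Epas1* and *Cdc42bpa*, which were on the list of messages with a known element, had no match in these transcripts and means of 4.7 ± 0.39 and 14.8 ± 2.3 FPKM (SD, n = 3). Matches also lay in the 3′ untranslated region of *Bola3* (28.3 ± 0.7 FPKM), an iron-sulphur cluster gene, and in the coding sequence of *Keap1* (14 ± 2.9 FPKM), the partner that restrains *Nfe2l2*. In these, 1 and 3 of the 5 outer base pairs formed, against 4 or 5 in every element of *Ftl1*, *Fth1*, *Slc40a1* and *Tfrc*. The match of *Slc11a2*, found when 4 of 5 stem pairs were enough, formed 1 outer pair. Coding matches occurred in 0.623% of all genes. *Bola3* and *Keap1* were named after the search, and whether they are bound was not tested.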
